A study of Bos taurus with 15 samples.

Results

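*CYM* (ENSBTAG00000010565), *PGA5* (ENSBTAG00000014761) and *LYZ2* (ENSBTAG00000026088) encode chymosin, pepsinogen A and a stomach lysozyme of cattle. They were taken by symbol from the annotation that came with the count matrices, and are 3 of the 27270 genes listed there. The data were unique molecular identifier (UMI) counts of droplet-based single-cell RNA sequencing from 15 libraries of Holstein cattle, 11 of newborn (NB) and 4 of adult (AD) animals, with 1 library for each tissue and stage. The NB tissues (liver, salivary gland, reticulum, omasum and abomasum, and the gut from duodenum through jejunum, ileum, cecum and colon to rectum) came from 3 calves, and the calf behind each library was not named. The AD duodenum, jejunum, cecum and colon came from a lone lactating cow, and an AD abomasum was not analysed here. The AD duodenum and cecum were dissociated with a lamina propria kit and the AD jejunum and colon with a multi tissue kit, whereas NB stomach and gut pieces were incubated in EDTA and trypsin before the tissue enzymes, so that stage, animal and dissociation cannot be told apart. Ages beyond the stage were not used here.

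The abomasum is the glandular, acid-secreting stomach of ruminants. Its glands hold chief cells that store digestive zymogens, parietal cells that pump acid (*ATP4A* encodes the catalytic subunit of the pump), mucous cells that secrete trefoil peptides such as *TFF1*, and endocrine cells that carry chromogranin A (*CHGA*). Chymosin is an aspartic protease that clots milk casein and is known as the main enzyme of the suckling ruminant's stomach, pepsinogen A is the precursor of the general stomach protease pepsin, and ruminants have recruited lysozymes into the stomach, where they digest bacteria that arrive from the forestomach.

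The 15 libraries held 172405 barcodes, of which 119798 were kept under limits on genes, UMIs and mitochondrial share and after removal of likely doublets. Total UMIs per library ran from 17707625 to 129458578 with a median of 82195756. The NB abomasum held 102878281 UMIs, and 8926 of its 14198 barcodes were kept, with a median of 7251 UMIs. Each other library shared 0.335% to 0.575% of its barcodes with the NB abomasum, and among the shared barcodes of the NB duodenum *CYM* had 0 UMIs, *PGA5* had 1 and *LYZ2* had 16. Levels are CPM, the UMIs of a gene per 1000000 UMIs of the summed barcodes, with exact Poisson 95% intervals. With 1 library a group there was no test between groups, and intervals cover counting error only.

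The NB abomasum stood far above every other library for the 3 genes. *CYM* was at 200529 CPM (interval 200433 to 200625), *LYZ2* at 151616 CPM (151533 to 151700) and *PGA5* at 23319.7 CPM (23286.9 to 23352.6). These were the 1st, 2nd and 5th highest genes of the library. The places between were held by the related lysozyme genes *LYZ1* (ENSBTAG00000046511) at 54168.5 CPM and *LYZ3* at 24578 CPM, and the next gene, the mitochondrial *COX1*, was at 12387 CPM. Together the 3 genes made up 37.5% of the UMIs of the kept barcodes, and with *LYZ1* and *LYZ3* the share was 45.4%. A gene was counted as higher here where its CPM was at least 4-fold that of every other library after 1 CPM was added to both, among genes of at least 10 CPM in either. *PGA5* and *LYZ2* passed, as did 0.542% of the 10518 genes compared. *CYM* passed too, but at no more than 7.39 CPM elsewhere it entered only through the NB abomasum, so its pass is a description only.

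*CYM*, the milk-clotting protease, had few UMIs elsewhere. The next library was the NB duodenum with 477 UMIs, or 7.39 CPM (interval 6.74 to 8.08), 27136-fold below the NB abomasum. The AD jejunum had 3 UMIs, the NB cecum, rectum and liver 2 each, and the NB jejunum and colon 1 each. The remaining 7 libraries (NB reticulum, omasum, ileum and salivary gland, and AD duodenum, cecum and colon) had none, which at a floor of 3 UMIs allows levels of up to 0.032 to 0.189 CPM. *CYM* was thus above the floor in the NB abomasum and the NB duodenum alone, and in the latter it lay in 36 of 7459 kept barcodes. Every other library, the AD duodenum among them, was at or under the floor. Where along the duodenum the samples lay was not given.

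*PGA5*, the pepsin precursor, was found at low levels in more tissues. Second to the abomasum was the NB liver at 21.9 CPM (20.7 to 23.0), 1067-fold lower, followed by the NB duodenum at 9.36 CPM, the NB jejunum at 3.19, the NB colon at 2.00, the AD jejunum at 1.85, the NB cecum at 1.58 and the NB salivary gland at 1.26 CPM. The NB ileum, AD duodenum, NB rectum and NB omasum lay between 0.448 and 0.856 CPM. The NB reticulum, AD cecum and AD colon had 4, 2 and 1 UMIs. The order below the NB jejunum was mostly within the counting intervals of neighbouring libraries.

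*LYZ2*, the stomach lysozyme, had a UMI in every library, as had *PGA5*, but at higher levels in the gut. It stood at 347 CPM (343 to 352) in the NB duodenum, 437-fold below the abomasum, at 236 CPM in the AD jejunum, 166 in the NB cecum, 139 in the NB jejunum and 65.6 CPM in the AD duodenum. The NB rectum had 32.2 CPM, the NB ileum 16.0, the AD colon 15.8 and the AD cecum 13.0 CPM, of which the NB ileum and AD colon are too close to be ordered. The NB liver, colon and salivary gland had 6.60, 6.16 and 4.97 CPM, and the squamous forestomach had almost none, with 3 UMIs for the NB omasum and 1 for the NB reticulum. *LYZ2* belongs to a cluster of related lysozyme genes (*LYZ1*, *LYZ3*, *LYSB* and *LYZ*), and how reads were assigned among the copies was not tested, so values of *LYZ2*, *LYZ1* and *LYZ3*, which were high together, are uncertain to that extent. *LYZ* was at 6.39 CPM in the abomasum barcodes with the epithelial marker *EPCAM* that were not high in *ATP4A*, *TFF1* or *CHGA*, and *LYSB* at 0.094 CPM over all its *EPCAM* barcodes, and in these sets *LYZ2* was at 220552 and 184165 CPM. Whether reads of *LYZ* or *LYSB* were counted to *LYZ2* in the gut libraries was not tested. In these summed values, fewer cells of a type and less RNA per cell cannot be told apart.

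**Figure D1:**
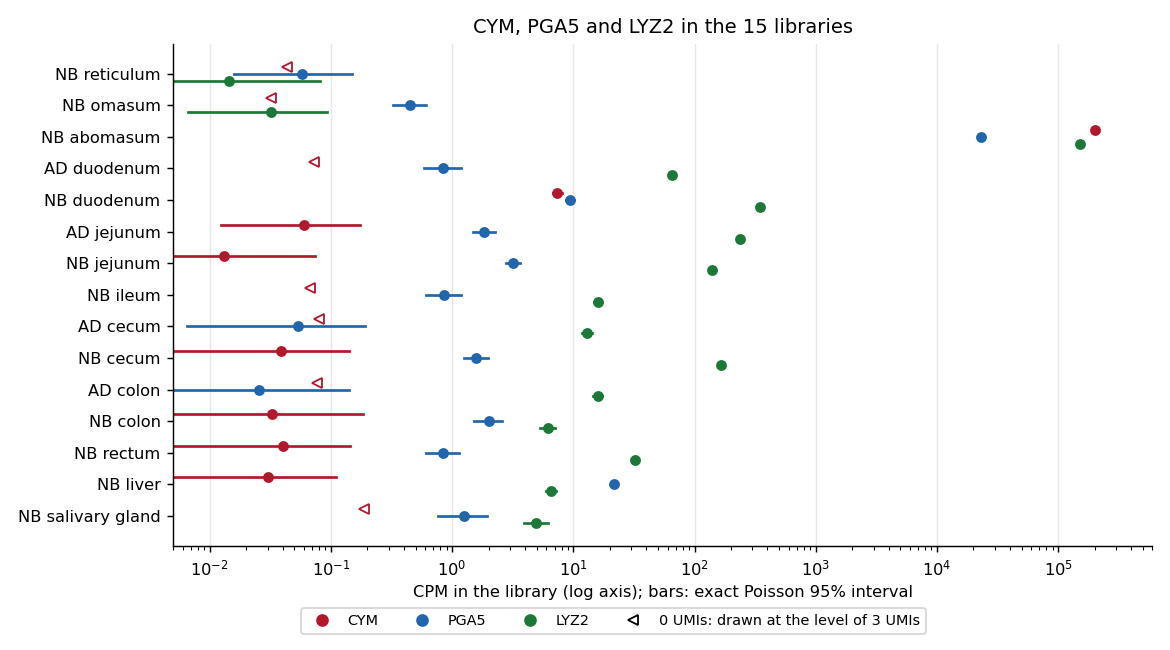
Level of *CYM*, *PGA5* and *LYZ2* in each of the 15 libraries, in CPM on a log axis, with exact Poisson 95% intervals; open triangles stand at 3 UMIs for libraries without a UMI, and bars that reach the left edge go on below it. The NB abomasum points, at 200529, 23319.7 and 151616 CPM, lie to the right of every other library.

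Droplets can hold RNA released by other cells, so the barcodes of the NB abomasum were split by marker genes, and leukocytes, which are not known to make stomach secretions, served as the reference level. How much of that level comes from free RNA, doublets or the cells themselves was not tested. A barcode was called high in *ATP4A*, *TFF1* or *CHGA* when it had at least 5 UMIs of the gene and a level above the 99th percentile over *PTPRC* barcodes (894 CPM for *ATP4A*, 397 for *TFF1* and 308 for *CHGA*). *PTPRC* barcodes, named for the pan-leukocyte phosphatase, had at least 2 *PTPRC* UMIs and no *EPCAM* UMI. This gave 543 *ATP4A*-high, 900 *TFF1*-high, 50 *CHGA*-high and 165 *PTPRC* barcodes, and 3602 remaining barcodes with the epithelial marker *EPCAM*. Another 1866 were stromal or endothelial, 8 were high in over 1 of the 3 genes and 1792 met none of these limits. Barcodes with a lone *PTPRC* UMI and no *EPCAM* UMI fell among the 1792 unless they were high in 1 of the 3 genes.

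The classes carried further markers beside the genes that set them. The levels of *ATP4A*, *TFF1* and *CHGA* in their own classes follow from the limits and are given as a description. *ATP4A*-high barcodes had *ATP4A* at 12976 CPM, the pump's other subunit *ATP4B* at 7732 and *CBLIF*, the vitamin B12 carrier, at 7557 CPM. *TFF1*-high barcodes had *TFF1* at 4560, *TFF2* at 22800 and the gastrokine *GKN1* at 491 CPM. *CHGA*-high barcodes had *CHGA* at 24987, *GHRL*, which encodes the hunger hormone ghrelin, at 152925 and *SST*, somatostatin, at 828 CPM. *PTPRC* barcodes had the leukocyte genes *CD52* at 1803, *LAPTM5* at 1368 and the T cell gene *CD3E* at 546 CPM. Markers of enterocytes (*FABP2*, *APOA4*, *ALPI*) and of squamous keratinocytes (*KRT5*, *KRT14*) were at or near 0 in the library. The remaining *EPCAM* barcodes were the deepest, with a median of 14497.5 UMIs against 5300 in *PTPRC* barcodes, and had the lowest median mitochondrial share, 3.13% against 30.1% in *ATP4A*-high and 9.07% in *TFF1*-high barcodes. Whether depth or mitochondrial share had a part in the levels below was not tested.

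The 3 genes were most abundant in the remaining *EPCAM* barcodes, which were not sorted by any marker beyond *EPCAM*. *CYM* stood there at 281559 CPM, *LYZ2* at 220552 and *PGA5* at 31729 CPM, together 53.4% of the UMIs. A barcode of this class carried 4112 ± 2884 *CYM* UMIs, 3221 ± 2721 *LYZ2* UMIs and 463 ± 437 *PGA5* UMIs (SD over 3602 barcodes). The class held 88.7% of the library's *CYM* UMIs, 91.9% of the *LYZ2* UMIs and 86.0% of the *PGA5* UMIs.

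*PTPRC* barcodes were not free of the 3 genes. They carried *CYM* at 12950 CPM, *LYZ2* at 11882 and *PGA5* at 1438 CPM, or 86.6, 79.4 and 9.61 UMIs a barcode. Stromal or endothelial barcodes, which have no known role in gastric secretion either, gave 15829, 12085 and 1598 CPM, close to the leukocyte level. *PGA5* stood at 11.1 UMIs per 100 *CYM* UMIs in *PTPRC*, 10.1 in stromal and 11.3 in remaining *EPCAM* barcodes. *LYZ2* stood at 91.7, 76.3 and 78.3 per 100 *CYM* UMIs in the same classes. The reference level also differed among the *PTPRC* barcodes. *CYM* was at 6944, *LYZ2* at 6109 and *PGA5* at 793 CPM in 43 *PTPRC* barcodes with the phagocyte gene *MPEG1*. In 122 without it they were at 16767, 15550 and 1847 CPM. Median depth was 9320 UMIs with *MPEG1* and 4570.5 UMIs without, and whether depth had a part was not tested.

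Against the level of all *PTPRC* barcodes the remaining *EPCAM* barcodes were 21.7-fold higher for *CYM*, 22.1-fold for *PGA5* and 18.6-fold for *LYZ2*. All 3 genes passed 4-fold, as did 2.9% of the 7205 genes compared. Because the 3 genes fill 53.4% of that class, every other gene is pressed down in CPM, and the median gene compared was -1.51 on the log2 scale. With UMIs of the 3 genes left out of the denominator, the folds were 45.4, 46.1 and 38.8, and 6.6% of 7987 genes passed. Counting *PTPRC* barcodes whatever their *EPCAM* count gave smaller log2 ratios of 3.17, 3.27 and 3.21 in place of 4.44, 4.46 and 4.21, and *PTPRC* barcodes with *MPEG1* as the reference gave 5.34, 5.32 and 5.17.

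Nearly every barcode of the library held a UMI of the 3 genes, so detection alone did not separate classes. After each barcode was thinned to 1000 UMIs, *CYM* and *LYZ2* were detected in over 99% of every class named above. *PGA5*, the least abundant, was detected in 96.7% of remaining *EPCAM*, 99.9% of *TFF1*-high, 81.8% of *ATP4A*-high, 70% of *CHGA*-high and 66.1% of *PTPRC* barcodes. Unthinned, those shares were 99.9%, 100%, 99.6%, 100% and 99.4%. The share of barcodes above the 95th percentile over *PTPRC* barcodes (29277 CPM for *CYM*, 3486 for *PGA5* and 19532 for *LYZ2*) was used as well. By that measure, chosen after the values were seen, 91.1% of remaining *EPCAM* barcodes were above the *PTPRC* level for *CYM* (exact binomial interval 90.1 to 92.0), 90.7% for *PGA5* and 89.3% for *LYZ2*.

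**Figure D2:**
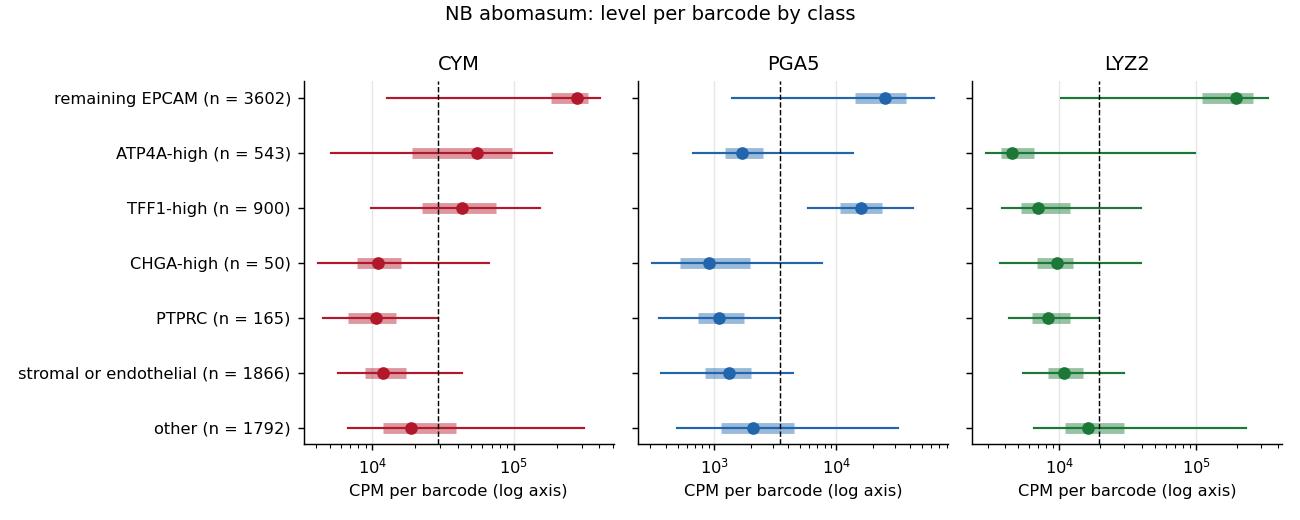
Level per barcode of *CYM*, *PGA5* and *LYZ2* in the classes of the NB abomasum, in CPM on a log axis; points are medians, thick bars the middle of the barcodes (25th to 75th percentile), thin bars the 5th to 95th percentile, and the dashed line the 95th percentile over *PTPRC* barcodes. The median of the remaining *EPCAM* class lies right of the line for the 3 genes, that of the *TFF1*-high class for *CYM* and *PGA5*, and that of the *ATP4A*-high class for *CYM* alone.

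The *ATP4A*-high barcodes, with the markers of acid-secreting cells, carried *CYM* above the *PTPRC* level but little of the other two. *CYM* was at 73400 CPM there, 5.67-fold the *PTPRC* level and past 4-fold, as were 8.77% of the 7799 genes compared. With all deposited barcodes, the ratios given at the end leave *CYM* short of 4-fold in this class. That setting held 1172 *ATP4A*-high barcodes, against 543 among the kept barcodes, so the *CYM* level here is that of the kept part only. The median mitochondrial share of the kept part was 30.1%, under a limit of 40%. *PGA5* at 3479 and *LYZ2* at 19834 CPM were 2.42-fold and 1.67-fold the *PTPRC* level and did not pass, although *PGA5* did against *PTPRC* barcodes with *MPEG1*, at a log2 ratio of 2.13. By barcode, 66.9% were above the *PTPRC* percentile for *CYM* (62.7 to 70.8), against 15.3% for *PGA5* and 11.8% for *LYZ2*. The median barcode had 4551 CPM of *LYZ2*, below the 8356 CPM of the median *PTPRC* barcode. In UMIs of *LYZ2* the medians were 44 and 49, at median depths of 9810 and 5300 UMIs. The log2 ratio of *LYZ2* turned from 0.74 in the sum to -0.88 with medians. It was 0.0091 where the class was held to at least 10 UMIs of *ATP4A* and 3 times the percentile. The log2 ratio of *PGA5* went from 1.27 to 0.63 with medians. The *PGA5* ratio was 4.74 and the *LYZ2* ratio 27.0 per 100 *CYM* UMIs, both below those of the leukocytes.

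*TFF1*-high barcodes, with mucous cell markers, had *CYM* and *PGA5* above the *PTPRC* level. *PGA5* was at 19006.5 CPM, 13.2-fold the *PTPRC* level, and *CYM* at 65912 CPM, 5.09-fold, both past 4-fold as were 10.4% of the 8133 genes compared. Against *PTPRC* barcodes without *MPEG1* the log2 ratio of *CYM* was 1.97, short of 4-fold. With all deposited barcodes, the ratios given at the end leave *CYM* short of 4-fold here too. *LYZ2* at 18558 CPM was 1.56-fold higher in the sum, but its median barcode at 7055 CPM was below that of the leukocytes. In UMIs of *LYZ2* the medians were 53 and 49, at median depths of 8789 and 5300 UMIs. The log2 ratio of *LYZ2*, 0.64 in the sum, was -0.24 with medians and -0.027 in the stricter class. *PGA5* exceeded the *PTPRC* percentile in 98.6% of these barcodes (97.5 to 99.2), a larger share than in the remaining *EPCAM* class, whereas *LYZ2* did so in 12.0%. The *PGA5* ratio of 28.8 per 100 *CYM* UMIs and of 102 per 100 *LYZ2* UMIs was the highest among the classes with 50 or more barcodes.

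*CHGA*-high barcodes, dominated by the ghrelin transcript, did not pass 4-fold for any of the 3 genes, while 11% of the 8451 genes compared did. *CYM* was at 32380, *PGA5* at 4837 and *LYZ2* at 27952 CPM, or 2.50-fold, 3.36-fold and 2.35-fold the *PTPRC* level. The sums rested on few barcodes, since 10% were above the *PTPRC* percentile for *CYM*, 16% for *PGA5* and 10% for *LYZ2*. The medians of 11007, 911 and 9602 CPM lay near the *PTPRC* medians of 10564, 1100 and 8356 CPM, which put the log2 ratios at 0.059, -0.27 and 0.20 in place of 1.32, 1.75 and 1.23. With at least 1 *PTPRC* UMI as the leukocyte limit that of *PGA5* was 0.51, and against *PTPRC* barcodes with *MPEG1* the ratios were 2.22, 2.61 and 2.19, each past 4-fold.

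The 1792 barcodes that met no class limit, with a median of 3080 UMIs, had *CYM* at 109018, *LYZ2* at 85846 and *PGA5* at 11795 CPM. This was 8.42-fold, 7.23-fold and 8.20-fold the *PTPRC* level. For *CYM* and *LYZ2* this was above the *ATP4A*-high, *TFF1*-high and *CHGA*-high classes, while the median barcode was far lower, with 18773 CPM for *CYM*, 16151 for *LYZ2* and 2072 for *PGA5*. Which cells these barcodes held was not determined. Set against the highest of the *ATP4A*-high, *TFF1*-high and *CHGA*-high classes, the remaining *EPCAM* barcodes exceeded it by log2 ratios of 1.94 for *CYM* (over *ATP4A*-high), 0.74 for *PGA5* (over *TFF1*-high) and 2.98 for *LYZ2* (over *CHGA*-high). With the 3 genes left out of the denominator the ratios were 2.89, 1.68 and 3.98, and with medians over barcodes that of *LYZ2* was 4.35.

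Within the *ATP4A*-high class *CYM* declined as *ATP4A* grew, while *LYZ2* and *PGA5* fell mostly over the lowest part of the range. The barcodes were ordered by *ATP4A* in 5 bins of 108 or 109, from 4661 CPM in the lowest bin to 20956 CPM in the highest. *CYM* went from 146958 CPM through 93304, 67121 and 40173 to 20430 CPM. *LYZ2* dropped within the lowest bins, from 73389 to 11282 CPM, and then to 7550, 4526 and 4773 CPM, under the *PTPRC* level of 11882. *PGA5* dropped from 9456 to 2165 CPM and then stayed between 1812 and 2152 CPM. The median barcode of the lowest bin had 15445 CPM of *LYZ2* and 3315 of *PGA5*, below the sums. From the second bin on the medians were 4381, 4287, 4264 and 4416 CPM for *LYZ2*. Those of *PGA5* went up, with 1394, 1524, 1671 and 1870 CPM. In CPM, *LYZ2* was below its *PTPRC* level from the second bin on. *CYM* and *PGA5* stayed above theirs, in the last bin with 20430 CPM against 12950 and 2100 CPM against 1438. With UMIs of *CYM*, *PGA5* and *LYZ2* left out of the denominator, *LYZ2* in the second bin was at 12630, above the *PTPRC* value of 12202. It was at 8178 in the next bin, so where *LYZ2* fell below the *PTPRC* level depended on the denominator. Median depth ran from 9122 to 10362 UMIs over these bins, against 5300 UMIs in *PTPRC* barcodes, and its part in these comparisons was not tested. The bins share their denominators with *ATP4A*, so a larger share of *ATP4A* lowers every other share somewhat.

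Within the *TFF1*-high class *PGA5* parted from *CYM* and *LYZ2*. From the lowest to the highest of 5 bins of 180 barcodes, *TFF1* went from 1010 to 9570 CPM, *CYM* was lower at each step with 117959, 80119, 56969, 40157 and 21345 CPM, and *LYZ2* did so with 41267, 17040, 12864, 8423 and 6618 CPM. *PGA5* had 17387, 16128, 18258, 19606 and 23721 CPM in the same bins. In the highest bin *PGA5* therefore exceeded *CYM*. *PGC*, the other pepsinogen gene, was at 4.2 CPM in the lowest and 407 CPM in the highest bin, *GKN1* at 24.4 and 1382 CPM, and *TFF2* at 13657 and 28244 CPM.

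**Figure D3:**
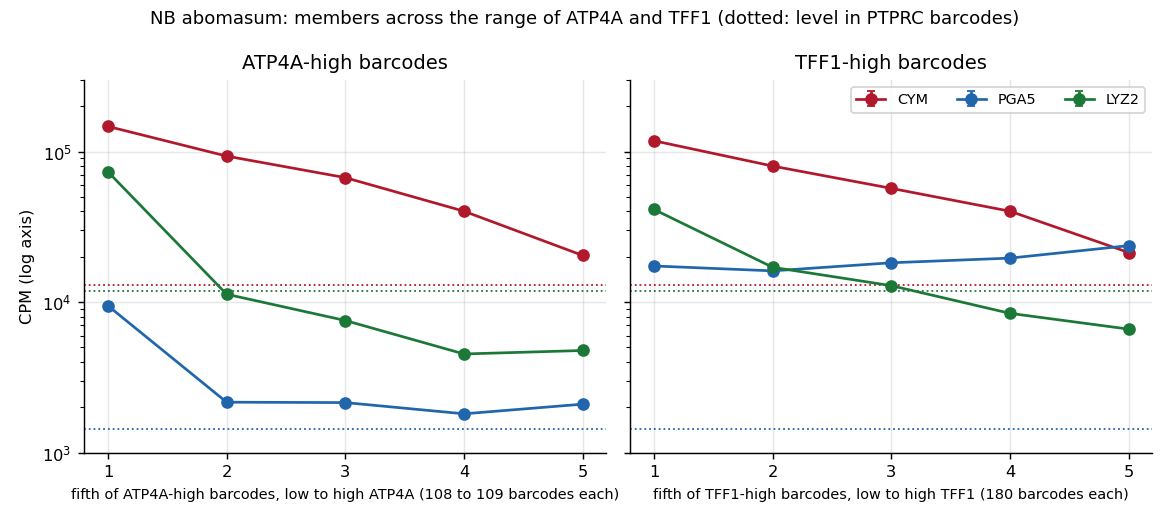
*CYM*, *PGA5* and *LYZ2* in 5 bins of the *ATP4A*-high barcodes ordered by *ATP4A* (left) and of the *TFF1*-high barcodes ordered by *TFF1* (right), in CPM on a log axis; dotted lines are the *PTPRC* levels, and the counting intervals are smaller than the points. *CYM* is lower with each bin in both panels and *LYZ2* in the right one, while *PGA5* is at 23721 CPM in the last *TFF1* bin.

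Among the remaining *EPCAM* barcodes, *CYM* and *LYZ2* varied together over the low range and separated at the top. In 10 bins of 360 or 361 barcodes ordered by *CYM*, the *CYM* level ran from 13170 CPM, at the *PTPRC* level, through 107585, 183142 and 230594 to 409283 CPM. *LYZ2* ran from 12634 through 90278 and 167980 CPM to its maximum of 259793 in the 6th bin, and was 213534 CPM in the 10th. *PGA5* went from 2169 and 20767 to 29168 CPM in the third bin and stayed between 29168 and 35492 CPM after it. Median depth went from 4436 UMIs in the lowest bin to 16145 in the highest. With *LYZ2* as the order, *CYM* was highest in the 8th bin at 324456 CPM and 285968 in the 10th, and with *PGA5* as the order, from 1498 to 67917 CPM, *CYM* ended at 296391 and *LYZ2* at 258674 CPM. Closure of shares within a barcode presses 1 gene down where another takes a larger share, and its part in these plateaus was not tested.

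The lowest *CYM* bin differed from the others in kind. *GHRL* was at 13252 CPM there and at most 16 CPM in the others, so barcodes rich in ghrelin RNA that did not reach the *CHGA* limits lay in it. *TFF2* was highest in the second bin at 3349 CPM, against 681 in the first and 60.9 CPM in the 10th. The division genes *TOP2A* and *MKI67* went from 46.8 and 20.8 CPM in the lowest bin to 1 and 2 UMIs in the highest. *CREB3L1*, a transcription factor of secretory cells, was at 134 CPM in the second bin and 30.6 CPM in the 10th.

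**Figure D4:**
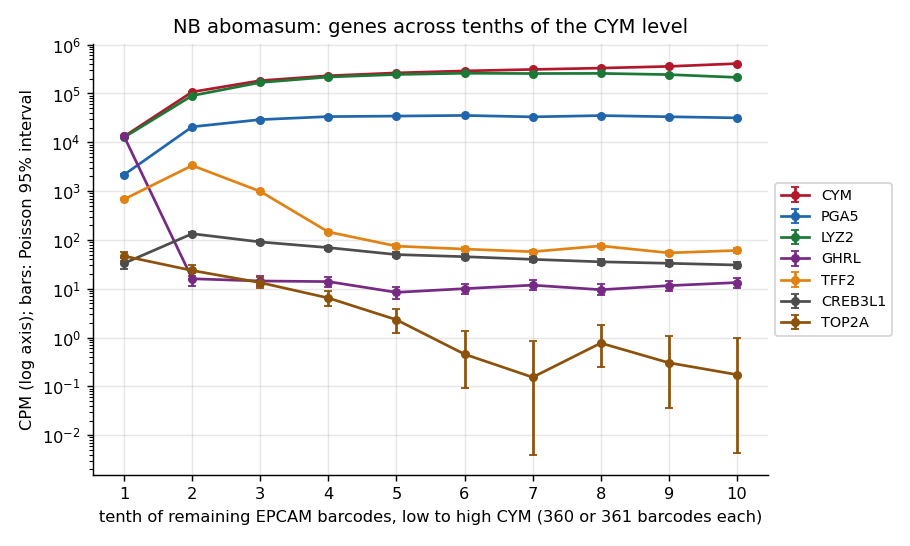
*CYM*, *PGA5*, *LYZ2* and 4 other genes in 10 bins of the remaining *EPCAM* barcodes of the NB abomasum, ordered by *CYM*, in CPM on a log axis with exact Poisson 95% intervals. *LYZ2* and *PGA5* level off while *CYM* goes on to 409283 CPM, and *GHRL* and *TOP2A* are highest in the lowest bin.

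In the NB abomasum the genes most like the members over single barcodes were mostly the members themselves and their relatives. Over 4900 *EPCAM* barcodes and 2765 genes, the Pearson correlation of log2 levels with *CYM* was 0.842 for *LYZ3*, 0.840 for *LYZ2*, 0.839 for *LYZ1*, 0.692 for *ARHGDIG* and 0.672 for *PGA5*. *LYZ2* was closest to its relatives *LYZ1* at 0.975 and *LYZ3* at 0.966. *PGA5* was closest to *CYM* at 0.672, *LYZ2* at 0.652 and both *LYZ1* and *LYZ3* at 0.651, with *ARHGDIG* at 0.445. The barcodes share 1 library and its free RNA, and no p is given. Over all kept barcodes of other libraries the nearest named genes were not relatives. For *LYZ2* these were *MPEG1*, *DNASE1L3* (0.665) and *MS4A7* (0.653) in the NB duodenum, *MPEG1* and *DNASE1L3* (0.719) in the NB jejunum, and *DNASE1L3* in the AD jejunum (0.663) and the NB cecum (0.754). For *PGA5* in the NB liver they were *CD300H* at 0.297, *PNP* at 0.293 and *MS4A7* at 0.292, all weak. Over *EPCAM* barcodes alone relatives were near *LYZ2*. In the NB duodenum *TFF2* (0.692) was followed by *LYZ3* (0.601) and *LYZ1* (0.369), and in 128 *EPCAM* barcodes of the AD jejunum *LYZ* (0.753) was the nearest. Over the 15 libraries and 10518 genes the closest to *CYM* were *ANXA10* at 0.999, *TFF1* at 0.994, *CLDN18* at 0.993, *VSIG1* at 0.991 and *CDH16* at 0.988. The closest to *PGA5* was *HABP2* at 0.977 and to *LYZ2* *CYSTM1* at 0.887. Those values rest on the lone abomasum library, where all are high.

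Of 6 listed genes of aspartic proteases, 2 reached 10 CPM in remaining *EPCAM* or *PTPRC* barcodes. *CTSD*, the lysosomal cathepsin D, was at 124 CPM in remaining *EPCAM* and 1360 in *PTPRC* barcodes. It was at least 4-fold lower in the former, as were 31.6% of all genes compared. *NAPSA*, at 0.32 and 21.8 CPM, entered only through the *PTPRC* class, so its levels are given as a description. *PGC* was at 1.24 CPM in remaining *EPCAM* and 0.91 in *PTPRC* barcodes. It was at 129 CPM in *TFF1*-high barcodes and at most 3.08 CPM in every other class except the 8 barcodes high in over 1 gene.

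Among lysozymes, *LYZ1* (ENSBTAG00000046511) and *LYZ3* followed *LYZ2*. They stood at 78729 and 35556 CPM in remaining *EPCAM*, 3717 and 1880 in *PTPRC*, 7434 and 3488 in *ATP4A*-high and 7623 and 3988 CPM in *TFF1*-high barcodes. *LYZ*, the family member known from phagocytes, went the other way, with 574 CPM in *PTPRC* and 6.39 in remaining *EPCAM* barcodes. Of the 8 listed relatives of *LYZ2*, 3 reached 10 CPM in either class. *LYZ* entered only through the *PTPRC* class in which it was high, so its lower level in remaining *EPCAM* barcodes is given as a description. The other 2 were at least 4-fold higher in remaining *EPCAM* barcodes, as were 2.9% of all genes compared.

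Of 11 other listed genes of stomach secretions, 4 had 10 CPM or more in *PTPRC* barcodes. Of these *TFF2* and *TFF1*, which defines the class, were at least 4-fold higher in *TFF1*-high barcodes, as were 10.4% of all genes compared. *GHRL* was so in remaining *EPCAM* barcodes, as were 2.9% of all genes compared. That *GHRL* lay almost wholly in the lowest *CYM* bin of the class described above. *GKN1*, *GKN2* and *TFF3* were below 10 CPM in *PTPRC* barcodes and entered only through a class in which they were high. *GKN1* and *GKN2* were at 491 and 56.1 CPM in *TFF1*-high barcodes, and *TFF3* was at 114 CPM in remaining *EPCAM* barcodes. *LIPF*, the gastric lipase, had no UMI in any class. Of 10 genes of the secretory machinery, 5 had 10 CPM or more in *PTPRC* barcodes. Of these *CREB3L1* was at least 4-fold higher in the *TFF1*-high and the remaining *EPCAM* class, as were 10.4% and 2.9% of all genes compared. *HSPA5*, *PDIA4*, *SEC61B* and *SSR4* were not so in either. *CREB3L1* and *SPDEF*, a factor of mucous cells, stood at 332 and 378 CPM in *TFF1*-high and 51.7 and 59.9 CPM in remaining *EPCAM* barcodes. *BHLHA15*, known for the maturation of zymogen cells, was at 0.68 CPM in the remaining class and *XBP1* at 8.42 CPM.

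Of 9 listed stomach transcription factors, 6 reached 10 CPM in the remaining *EPCAM* class and none did in *PTPRC* barcodes. They entered the comparison only through the class in which they were high, so their levels are given as a description. *GATA4* was at 31.0 CPM in remaining *EPCAM* and 0.91 in *PTPRC* barcodes, *GATA5* at 47.7 and 5.44, *GATA6* at 16.1 and 2.72, *FOXA1* at 18.7 and 0, *FOXA2* at 52.5 and 7.25 and *FOXA3* at 31.2 and 2.72 CPM. *GATA5* was at 215 CPM in *TFF1*-high barcodes. *ESRRG*, known from acid-secreting cells, was at 29.5 CPM in *ATP4A*-high barcodes and had no UMI in *PTPRC* barcodes. The intestinal factors *PDX1* and *CDX2* had no UMI in the library's classes.

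Outside the stomach, a few barcodes of the NB duodenum held most of its *PGA5* and *LYZ2*. Over the *EPCAM* barcodes of this library *TFF2* was the gene most like *LYZ2* (Pearson r 0.692). After the values were seen, barcodes with at least 100 *TFF2* UMIs were set apart, so their share of *LYZ2* restates that likeness. There were 14 of 7459 kept barcodes (0.188%), the lowest inside with 114 *TFF2* UMIs and the highest outside with 30. They held 48.8% of the library's *CYM* UMIs (233, or 1147 CPM), 81.0% of the *PGA5* UMIs (489, or 2407 CPM) and 76.8% of the *LYZ2* UMIs (17222, or 84788 CPM). None of the 14 shared a barcode with the NB abomasum.

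*LYZ2* was in 13 of the 14, from 0 to 6479 UMIs with a median of 317.5, and made up to 27.8% of a barcode's UMIs. *CYM* and *PGA5* were each in 10 of the 14, with medians of 1.5 and 5.5 UMIs and highest counts of 184 and 156 UMIs, so that 1 barcode held most of the *CYM*. The *CYM* level of the set, 1147 CPM, was below the 12950 CPM of *PTPRC* barcodes in the abomasum, whereas its *LYZ2* level was not. All 14 had *EPCAM* UMIs and none had a UMI of *PTPRC*, *PGC* or the phagocyte gene *LYZ*. *LYZ3* was at 9000 CPM, and *LYZ1*, here summed over both genes of that name, at 7705 CPM. *TFF1* had 15 UMIs in all, 73.8 CPM, against 4560 CPM in the *TFF1*-high barcodes of the abomasum. As a set these barcodes, selected by *TFF2*, had high *LYZ2* with little *TFF1* and no *PGC*.

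The other 3393 *EPCAM* barcodes of the NB duodenum had *LYZ2* at 9.97, *CYM* at 5.67 and *PGA5* at 1.99 CPM. Much of that *CYM* lay in a lone barcode with 210 *CYM* UMIs of 12020 in all, 19 of *EPCAM* and 1 each of *LYZ2*, *PGA5* and *TFF2*. The 10 barcodes highest in *CYM* held 93.7% of its UMIs in the library. Without the 14 barcodes the library's levels were 3.79 CPM for *CYM*, 1.79 for *PGA5* and 80.8 for *LYZ2*.

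*TFF2* alone did not mark *LYZ2*. By the same limit the NB colon had 61 such barcodes, the NB rectum and AD cecum 5 each and the NB cecum 1, all without a UMI of *CYM*, *PGA5* or *LYZ2*. In the NB abomasum 513 such barcodes had *LYZ2* at 17481, *CYM* at 69711 and *PGA5* at 18360 CPM, so *LYZ2* was higher relative to *CYM* in the duodenal set. The AD duodenum had none, but only 31 of its kept barcodes carried *EPCAM* without *PTPRC*, so their absence there was not detectable at this number of epithelial barcodes.

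In the NB duodenum *LYZ2* was at 425 CPM (419 to 431) in *EPCAM* and 441 CPM (424 to 459) in *PTPRC* barcodes, intervals that overlap. Without the 14 *TFF2*-rich barcodes its *EPCAM* barcodes were at 9.97 CPM, below the *PTPRC* level. In the other gut libraries except the AD duodenum *LYZ2* was higher in leukocyte than in epithelial barcodes. *EPCAM* and *PTPRC* barcodes had 6.58 and 322 CPM in the NB jejunum, 10.5 and 258 in the NB cecum, 6.09 and 59.7 in the NB rectum, 1.48 and 45.2 in the NB ileum and 0.60 and 16.8 CPM in the NB colon. In the AD jejunum they had 25.9 and 178 CPM, and in the AD cecum and colon *LYZ2* had no UMI in 221 and 137 *EPCAM* barcodes. In the AD duodenum the interval of the *EPCAM* barcodes, 24.5 CPM (6.68 to 62.7) from 4 UMIs, held the 39.4 CPM of the *PTPRC* barcodes. Those 4 UMIs lay in 1 of 31 *EPCAM* barcodes, and the 10 UMIs of the NB ileum in 1 of 616. Counting intervals do not cover that spread over barcodes. Barcodes that met no class limit, which can hold a lone *PTPRC* UMI or UMIs of both *EPCAM* and *PTPRC*, carried more still in the AD libraries. They had 324 CPM in the jejunum, 103 in the duodenum, 31.2 in the colon and 23.3 CPM in the cecum. *PTPRC* barcodes had 178, 39.4, 11.6 and 9.49 CPM. The barcodes that met no limit held 49.8% to 65.0% of the *LYZ2* UMIs of those libraries, and which cells they were was not determined.

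Among leukocytes *LYZ2* lay mostly in barcodes with *MPEG1*, a perforin-like gene of phagocytes. The split by *MPEG1* was chosen after the values were seen. Over kept barcodes *MPEG1* was the gene most like *LYZ2* in the NB duodenum (Pearson r 0.669) and the second in the NB jejunum (0.730), so in these libraries the split restates that likeness. *PTPRC* barcodes with and without an *MPEG1* UMI had *LYZ2* at 539 and 25.9 CPM in the NB duodenum, 421 and 0.92 for the AD duodenum, 352 and 20.8 in the NB jejunum and 346 and 4.40 CPM in the AD jejunum. The NB cecum had 351 and 5.51, the AD cecum 367 and 0.22, the AD colon 288 and 0.08, the NB ileum 176 and 0.27, the NB rectum 113 and 2.44 and the NB colon 58.1 and 0.38 CPM. The NB salivary gland had 44.6 and 1.22 and the NB liver 8.95 and 0.55 CPM. *LYZ2* was higher with *MPEG1* in 12 of the 14 libraries other than the abomasum, and in the NB reticulum and omasum, with 8 and 5 *PTPRC* barcodes, it had no UMI. In the abomasum barcodes without *MPEG1* had more of all 3 genes, as given above.

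By barcode, *LYZ2* was detected in 86.5% of 384 *MPEG1* barcodes (median 11920.5 UMIs) and 12.3% of 138 others (7948.5 UMIs) in the NB duodenum, and in 5.48% of 3321 *MPEG1* barcodes of the NB liver. In *MPEG1* barcodes of the 12 libraries with *LYZ2* there, the related *LYZ* was the more abundant, and the ratio of both varied with the tissue. There were 0.494 *LYZ2* UMIs per 100 *LYZ* UMIs in the NB liver, 3.08 in the NB salivary gland, 5.96 in the NB colon and 8.69 in the NB rectum, against 25.6 to 48.3 in the AD cecum, AD colon, NB ileum, NB cecum, NB jejunum and AD jejunum, 74.2 in the NB duodenum and 80.7 for the AD duodenum.

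The stages can be set side by side for *LYZ2* per library and within *MPEG1* barcodes. Per library, the NB and AD duodenum had 347 and 65.6 CPM, and without the 14 *TFF2*-rich barcodes the NB duodenum had 80.8 CPM. The jejunal values were 139 and 236, those of the cecum 166 and 13.0 and those of the colon 6.16 and 15.8 CPM. Within *MPEG1* barcodes, the jejunum had 352 CPM (343 to 361) in the NB and 346 (336 to 355) in the AD library, and the cecum 351 (341 to 360) and 367 (319 to 419) CPM, intervals that overlap. The duodenum had 539 (518 to 561) and 421 (394 to 449) CPM, and the colon 58.1 (48.2 to 69.5) and 288 (257 to 322) CPM. The NB and AD libraries had 1040 and 70 *MPEG1* barcodes in the cecum, 1306 and 1805 in the jejunum, 384 and 303 in the duodenum and 126 and 119 in the colon. The T cell gene *CD3E* was detected in 0.689% of NB and 14.1% of AD *MPEG1* barcodes in the jejunum, and in 5.10% and 27.1% in the cecum. The shares were 0% and 22.4% in the duodenum and 6.35% and 37.8% in the colon. Whether T cell RNA in these barcodes had a part in the *LYZ2* levels was not tested. Each side is 1 library of another animal and another dissociation.

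Most *PGA5* UMIs of the NB liver lay in leukocyte barcodes. *PTPRC* barcodes had 26.9 CPM and 78.7% of the library's *PGA5* UMIs, and barcodes that met no class limit had 13.1 CPM. The 23 stromal or endothelial barcodes had 46.0 CPM (interval 19.9 to 90.6) from 8 UMIs. The 117 *EPCAM* barcodes had none, which at a floor of 3 UMIs allows up to 3.67 CPM. *PTPRC* barcodes with *MPEG1* had 29.1 CPM and those without 20.7 CPM, so the level was not limited to either. A UMI was found in 17.6% of the barcodes with *MPEG1* (median 9083 UMIs) and in 5.57% of those without (3525.5 UMIs). Over the 14 libraries *PGA5* was higher with *MPEG1* in 10, with a median of 3.71 CPM against 0.204 CPM without, and *CYM* did not exceed 0.484 CPM in any. Among those 10 the counting intervals of *PGA5* overlapped in the NB rectum, NB colon and NB duodenum. The AD cecum and NB salivary gland rested on 2 and 3 *PGA5* UMIs with *MPEG1*. The NB cecum went the other way, with 1.95 CPM with *MPEG1* and 3.99 without, and the NB reticulum, NB omasum and AD colon had no *PGA5* UMI in either. A separate trace was in the NB omasum, where stromal or endothelial barcodes had 26 *PGA5* UMIs in 435 barcodes, 22.1 CPM.

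**Figure D5:**
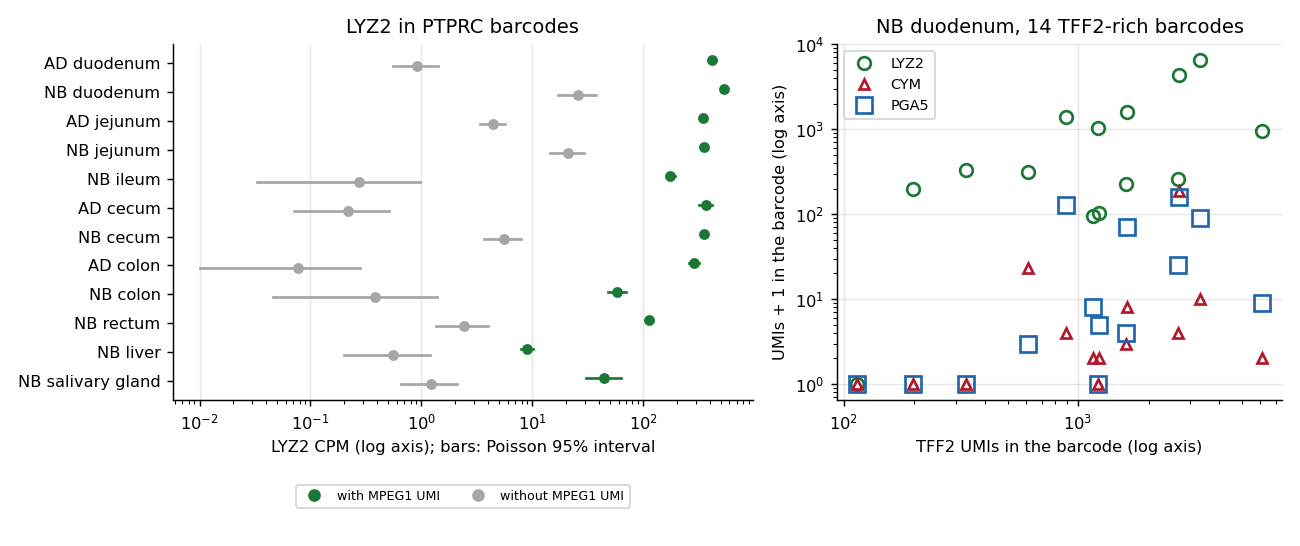
Left, *LYZ2* in *PTPRC* barcodes with and without an *MPEG1* UMI in the 12 libraries that had *LYZ2* in them, apart from the NB abomasum, in CPM on a log axis with Poisson 95% intervals; right, UMIs of *LYZ2*, *CYM* and *PGA5* against *TFF2* UMIs in each of the 14 *TFF2*-rich barcodes of the NB duodenum, on log axes with 1 added to the members. *LYZ2* is higher with *MPEG1* in all 12, and on the right *LYZ2* reaches 6479 UMIs while *CYM* and *PGA5* stay under 200 UMIs.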

How the data were processed

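The authors deposited UMI counts per gene and barcode, made per the submitters' processing notes with Cell Ranger 3.1.0 against ARS-UCD1.2, replicates not pooled. The annotation release was not given in the sources used here. Following the study's limits, barcodes were kept that had 500 to 4000 genes, fewer than 50000 UMIs and a mitochondrial share below 40%. The highest doublet scores (0.8% per 1000 barcodes, 30 principal components, 2 simulated doublets a barcode) were removed with a scheme like Scrublet, in place of the study's caller. UMIs were summed by library and class and given as CPM with exact Poisson intervals, shares with Clopper-Pearson intervals. Each group has 1 library, so no test was made. The members and lists were chosen with earlier results of these data known. Named genes were the members, every gene of the fixed lists (aspartic proteases, lysozymes, stomach secretions, acid, secretory machinery, transcription factors, division), class markers, and the 5 genes most like each member. Genes of the lists that the annotation did not list (*CTSE*, *GIF*, *GKN3*, *MUC5AC*, *MUC6* and *SOX2*) were not used. A further gene of the lists is not reported here. *LYSB*, *MPEG1* and the *TFF2*-rich barcodes were added after the values were seen. Alternatives changed the barcodes kept, the denominator, the class limits, thinning and sums against medians. The scripts were tested on simulated data. Python 3.11.15, NumPy 2.4.6, SciPy 1.17.1, pandas 2.3.3, scikit-learn 1.9.0 and matplotlib 3.10.9 were used. Total UMIs per library, 17707625 to 129458578, set the precision, and PCR duplicates were collapsed by UMI upstream.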

Additional observations from a re-analysis of the deposited data

Results flagged for a closer look

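Barcodes of the NB abomasum with under 500 genes were outside every comparison above, and all 3 genes were above their level in *PTPRC* barcodes there. In 4124 such barcodes with a median of 1307 UMIs, *CYM* was at 88699 CPM (interval 88491 to 88906), against 12950 CPM in *PTPRC* barcodes. *LYZ2* was at 50835 CPM against 11882, and *PGA5* at 8152 CPM against 1438.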

How the results depend on the processing

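No paired analysis was possible because each group has 1 library, and for the same reason leaving out a replicate was not possible. Depth limits *CYM* to floors of 0.032 to 0.189 CPM in the libraries without a UMI, and the level in leukocytes limits all statements on detection in the NB abomasum. The ratio to the next library and the ratios of the remaining *EPCAM* barcodes kept their direction under all alternatives run, and 50 of 54 alternatives did so for the ratios of the other classes to *PTPRC* barcodes, which were added after the data were seen.

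For the log2 ratio of the NB abomasum to the next library (*CYM* 14.73, *PGA5* 10.06, *LYZ2* 8.77), all deposited barcodes gave 15.19 for *CYM* and 9.30 for *LYZ2*, doublets left in gave 8.82 for *LYZ2*, a denominator without the members gave 15.41, 10.74 and 9.45, and one without mitochondrial UMIs gave 14.57 for *CYM* and 8.62 for *LYZ2*.

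For remaining *EPCAM* over *PTPRC* barcodes (4.44, 4.46 and 4.21 in the order *CYM*, *PGA5*, *LYZ2*), all deposited barcodes gave 3.89, 4.10 and 3.77, doublets left in 3.88, 4.10 and 3.77, the denominator without the members 5.51, 5.53 and 5.28, and *PTPRC* barcodes whatever their *EPCAM* count 3.17, 3.27 and 3.21. A denominator without mitochondrial UMIs gave 4.39 for *CYM* and 4.16 for *LYZ2*, at least 1 *PTPRC* UMI gave 4.32 for *LYZ2*, and medians gave 4.72 for *CYM* and 4.55 for *LYZ2*. As references added later, *PTPRC* barcodes with *MPEG1* gave 5.34, 5.32 and 5.17 and those without 4.07, 4.10 and 3.83.

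Remaining *EPCAM* barcodes were also set over the highest of the *ATP4A*-high, *TFF1*-high and *CHGA*-high classes, barcodes that met no class limit not among them. The ratios were 1.94, 0.74 and 2.98. All deposited barcodes gave 1.96 (for *CYM* then over *TFF1*-high, no longer *ATP4A*-high), 0.72 and 2.93. Doublets left in gave 1.74 and 0.70 for *CYM* and *PGA5*, and the denominator without the members 2.89, 1.68 and 3.98. That without mitochondrial UMIs gave 1.40, 0.62 and 2.93, stricter classes 2.08, 0.72 and 3.17, and medians 2.35, 0.65 and 4.35.

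For *ATP4A*-high over *PTPRC* barcodes (2.50, 1.27 and 0.74), the denominator without the members gave 2.61, 1.38 and 0.85, stricter classes 2.34, 0.84 and 0.0091, medians 2.37, 0.63 and -0.88, and at least 1 *PTPRC* UMI 0.86 for *LYZ2*. For *TFF1*-high (2.35, 3.72 and 0.64), the denominator without the members gave 2.47, 3.84 and 0.76, stricter classes 2.03 for *CYM* and -0.027 for *LYZ2*, at least 1 *PTPRC* UMI 2.32 and 0.70 for *CYM* and *LYZ2*, and medians 2.02, 3.86 and -0.24. For *CHGA*-high (1.32, 1.75 and 1.23), the denominator without the members gave 1.38 and 1.29 for *CYM* and *LYZ2*, stricter classes 0.54 and 1.01 for *PGA5* and *LYZ2*, at least 1 *PTPRC* UMI 1.15, 0.51 and 0.98, and medians 0.059, -0.27 and 0.20. With and without *MPEG1* in the *PTPRC* barcodes, the ratios were 3.40 and 2.13 (*CYM*), 2.13 and 0.91 (*PGA5*) and 1.70 and 0.35 (*LYZ2*) for *ATP4A*-high, 3.25 and 1.97, 4.58 and 3.36, and 1.60 and 0.26 for *TFF1*-high, and 2.22 and 0.95, 2.61 and 1.39, and 2.19 and 0.85 for *CHGA*-high barcodes. The cause of the reversals was not tested. Ratios of these classes to *PTPRC* barcodes were not run with all deposited barcodes or with *PTPRC* barcodes whatever their *EPCAM* count. Both settings lowered the ratios of the remaining *EPCAM* barcodes.

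The share of barcodes with *PGA5* moved from 96.7% to 99.9% without thinning and 98.9% at 2000 UMIs in remaining *EPCAM*, from 66.1% to 99.4% and 84.0% in *PTPRC*, from 81.8% to 99.6% and 94.2% in *ATP4A*-high, from 99.9% to 100% and 100% in *TFF1*-high and from 70% to 100% and 96% in *CHGA*-high barcodes. Those of *CYM* in *PTPRC* (99.4%) and *ATP4A*-high (99.6%) and of *LYZ2* in *ATP4A*-high (99.1%) and *TFF1*-high barcodes (99.2%) moved to 100% under both.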

Other observations

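*LYSB*, a lysozyme gene next to *LYZ2* that was picked after its values were seen, was high in epithelial barcodes of most gut libraries. Its level in *EPCAM* and *PTPRC* barcodes was 6772 and 17.2 CPM in the NB ileum, 5124 and 11.5 in the NB jejunum, 4468 and 7.12 in the AD jejunum, 4031 and 25.7 in the AD cecum, 922 and 6.59 in the NB colon, 450 and 3.87 in the NB duodenum, 258 and 3.78 in the NB rectum and 74.6 and 4.19 CPM in the NB cecum. In these 8 libraries the epithelial level was the higher, opposite to that of *LYZ2* in the jejunum, ileum, cecum, colon and rectum. It had no UMI in 137 *EPCAM* barcodes of the AD colon and 31 of the AD duodenum, which at a floor of 3 UMIs allows up to 2.11 and 18.4 CPM. In *EPCAM* barcodes of the NB abomasum *LYSB* was at 0.094 CPM. The other gene named *LYZ1* (ENSBTAG00000011941) was at 126 CPM in the NB colon, 45 in the NB rectum, 42.8 in the AD cecum and 9.37 in the NB cecum (131, 87.9, 116 and 84.4 CPM over all deposited barcodes, so the order below the NB colon depends on the barcodes kept), but at 0.024 CPM in the abomasum, where its namesake was the third gene of the library. *LYZ* was highest in the NB liver at 1321 CPM, followed by the NB cecum at 446 and the AD jejunum at 383 CPM.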
